A study of Drosophila melanogaster with 6 samples.

Results

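The vacuolar H+-ATPase (V-ATPase) genes of *Drosophila melanogaster* were taken as every gene whose FlyBase symbol starts with Vha, which gave 33 of 17527 listed genes. They lie on chromosome arms 2L (6 genes), 2R (8), 3L (5), 3R (12) and X (2). The V-ATPase is a rotary proton pump of endosomes, lysosomes and, in some epithelia, the plasma membrane. Its cytosolic V1 sector hydrolyses ATP and turns a central stalk, and its membrane V0 sector carries protons across the bilayer on a ring of proteolipids. Several subunits are encoded by small families of paralogs, and in imaginal discs the pump is known for its part in endocytic Notch and Wingless signalling.

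The libraries were made from wing imaginal discs, larval sheets of cells from which the wing and the dorsal thorax develop. Of the 6 RNA-seq libraries, 3 were controls that carried the MS1096-Gal4 driver alone, and 3 carried it together with a transgenic hairpin that targets dNKAP (MS1096-Gal4>dNKAP RNAi). The driver is strongest in the wing pouch, so a whole disc also holds cells with little or no hairpin, and the age of the larvae is not given in the sources used here. Those sources do not tell whether replicates are separate animals, so the p-values rest on the spread of these 6 libraries, which may be technical.

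Levels are FPKM, which divides fragments by transcript length and library size, so they can be set beside each other between genes of different length. Each library listed 33445 to 33742 transcripts and 6022 to 6183 genes at 1 FPKM or more, with 4.14 to 6.44 gigabases of aligned depth. CG6066, the dNKAP gene, stood at 23.6, 22.8 and 26.6 FPKM across the controls, against 13.96, 13.3 and 11.4 FPKM under dNKAP RNAi, a fall with a log2 change of -0.90 and an SE of 0.11 (limma adjusted p = 0.0146). Summed wing disc markers reached 487 to 506 FPKM in controls and 534 to 562 FPKM in dNKAP RNAi libraries, with 9 of 10 at a mean of 1 FPKM or more and engrailed (en) at 0 in every library. The 5 fat body markers summed to 0.991 to 41.8 FPKM in controls and 152 to 570 FPKM in dNKAP RNAi libraries, with Lsp1beta, Lsp2 and Fbp2 at 0 throughout, and the part of such cells in the results below was not tested. In bulk samples fewer cells of a type and less RNA per cell cannot be told apart.

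The discs held 1 abundant gene for most subunits of the pump, while most of the other paralogs were listed near or at 0. Of the 33 genes, 17 had a mean of at least 1 FPKM over the 6 libraries and were tested, and 14 of these were above 0 in every library. The 16 untested genes never exceeded 0.977 FPKM, the value of VhaM9.7-a in control 1. Vha68-1, with a mean of 1.05 FPKM, lay nearest to the limit on the inside and VhaM9.7-a, with a mean of 0.212 FPKM, nearest on the outside. Of the untested genes, 9 were above 0 in some library and 7 were listed at 0 in all 6.

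**Figure D1:**
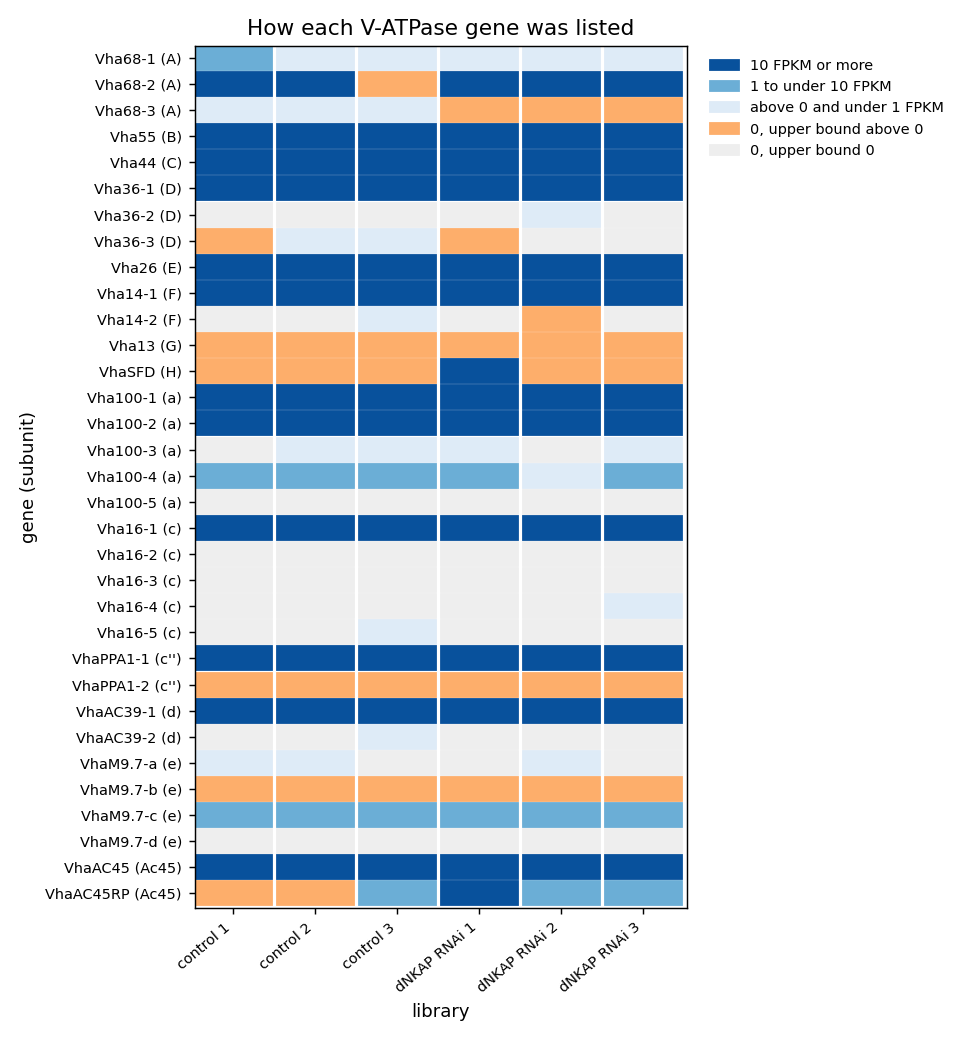
How each of the 33 V-ATPase genes (vertical axis, with its subunit) was listed in each of the 6 libraries (horizontal axis), by level in FPKM and, for values of 0, by whether the deposited upper confidence bound was above 0. Rows of dark blue, at 10 FPKM or more, run through 11 genes in every library, and 7 genes are at 0 in all 6.

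A value of 0 had more than 1 form in these tables. For Vha100-5, Vha16-2, Vha16-3 and VhaM9.7-d the upper confidence bound was also 0 in every library. For Vha13, VhaM9.7-b and VhaPPA1-2 the value was 0 in every library but the upper bound was above 0, at 0.0898 to 0.143, 0.0661 to 0.105 and 0.139 to 0.222 FPKM. Vha13 is the gene of the G subunit, a peripheral stalk protein, and it has no paralog among the 33 genes. The V1 sector was therefore listed with a tested gene for 7 of its 8 subunits and the V0 sector for 5 of 5. Of those 7, the H subunit counted only through VhaSFD, which was above 0 in 1 library. A listed 0 cannot be read here as absence of the transcript.

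Some neighbouring paralogs on the chromosome differed widely in level, while Vha16-3 and Vha16-2, 985 bases apart, were both listed at 0. Vha68-2 and Vha68-3 lie 178 bases apart and had means of 38.7 and 0.0631 FPKM. Vha100-4 and Vha100-2 lie 517 bases apart and had means of 1.77 and 52.4 FPKM, and VhaPPA1-2 and VhaPPA1-1, 2052 bases apart, had means of 0 and 69.8 FPKM. The use of strand is not given in the sources used here, so levels of genes whose exons overlap a gene on the other strand are less certain. Among tested members this concerned 11 bases of Vha100-1 with Alg13, 47 bases of Vha100-4 with cona and 148 bases of Vha44 with Hmgs.

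Among the V1 genes, the catalytic A subunit was unevenly listed. Vha68-2, the most abundant gene for this ATP-hydrolysing subunit, stood at 94.2, 48.6 and 0 FPKM in controls 1 to 3 and at 32.0, 40.04 and 17.2 FPKM in dNKAP RNAi libraries 1 to 3. The control values enclosed all 3 dNKAP RNAi values, and the 0 in control 3 alone set the direction of the fitted difference (1.11 on the log2 scale, 95% interval -4.15 to 6.37, limma adjusted p = 0.798), which was -1.26 without that library. Vha68-1, a lowly expressed paralog, stood at 1.98, 0.936 and 0.998 FPKM across the controls, against 0.761, 0.903 and 0.745 FPKM under dNKAP RNAi, without overlap (log2 change -0.43, 95% interval -1.32 to 0.47, adjusted p = 0.575). It reached a mean of 1 FPKM through control 1 alone, and without that library it was not tested. Vha68-3, untested, reached 0.102, 0.166 and 0.110 FPKM in the 3 controls but 0 in all dNKAP RNAi libraries. In those libraries a leading isoform with no row may belong to Vha68-2 or Vha68-3, as described below.

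The B subunit and the central stalk were measured more evenly. Vha55, the B subunit, which completes the catalytic hexamer with A, stood at 100.5, 98.2 and 100.1 FPKM across the controls, against 82.7, 97.9 and 93.7 FPKM under dNKAP RNAi. All 3 dNKAP RNAi libraries lay below all controls, with group means of 99.6 ± 1.23 and 91.4 ± 7.81 FPKM (SD, n = 3 each), a log2 difference of -0.13 that did not pass the test (95% interval -0.31 to 0.06, limma adjusted p = 0.419). Vha36-1, the D subunit of the central stalk, stood at 92.5, 75.8 and 76.3 FPKM across the controls, against 64.0, 72.4 and 71.3 FPKM under dNKAP RNAi. Its groups did not overlap either, with a log2 difference of -0.23 (95% interval -0.49 to 0.03, adjusted p = 0.299). Vha14-1, the F subunit of the same stalk, stood at 79.0, 76.5 and 92.4 FPKM across the controls, against 80.1, 77.7 and 69.1 FPKM under dNKAP RNAi, with overlapping groups (log2 difference -0.12, 95% interval -0.38 to 0.13, adjusted p = 0.559).

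The peripheral stalk and the subunits that attach to it differed in how steadily they were listed. Vha26, the E subunit, stood at 69.7, 66.7 and 70.7 FPKM across the controls, against 63.8, 65.0 and 60.7 FPKM under dNKAP RNAi, without overlap (log2 difference -0.13, 95% interval -0.26 to 0.0068, limma adjusted p = 0.284). Vha44, the C subunit, which bridges V1 and V0, stood at 23.6, 61.5 and 53.8 FPKM across the controls, against 51.8, 48.1 and 21.1 FPKM under dNKAP RNAi. Control 1 and dNKAP RNAi library 3 lay well below the other 4 libraries and the groups overlapped (log2 difference -0.19, 95% interval -1.48 to 1.11, adjusted p = 0.871). VhaSFD, the H subunit, which is needed for pump activity, was listed at 36.1 FPKM in dNKAP RNAi library 1 and at 0 in the other 5, where its upper bounds were 0.0295 to 0.049 FPKM. It reached a mean of 1 FPKM through that library alone (log2 difference 2.07, 95% interval -2.55 to 6.68, limma adjusted p = 0.585). With exact transcript matches alone VhaSFD was not tested.

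**Figure D2:**
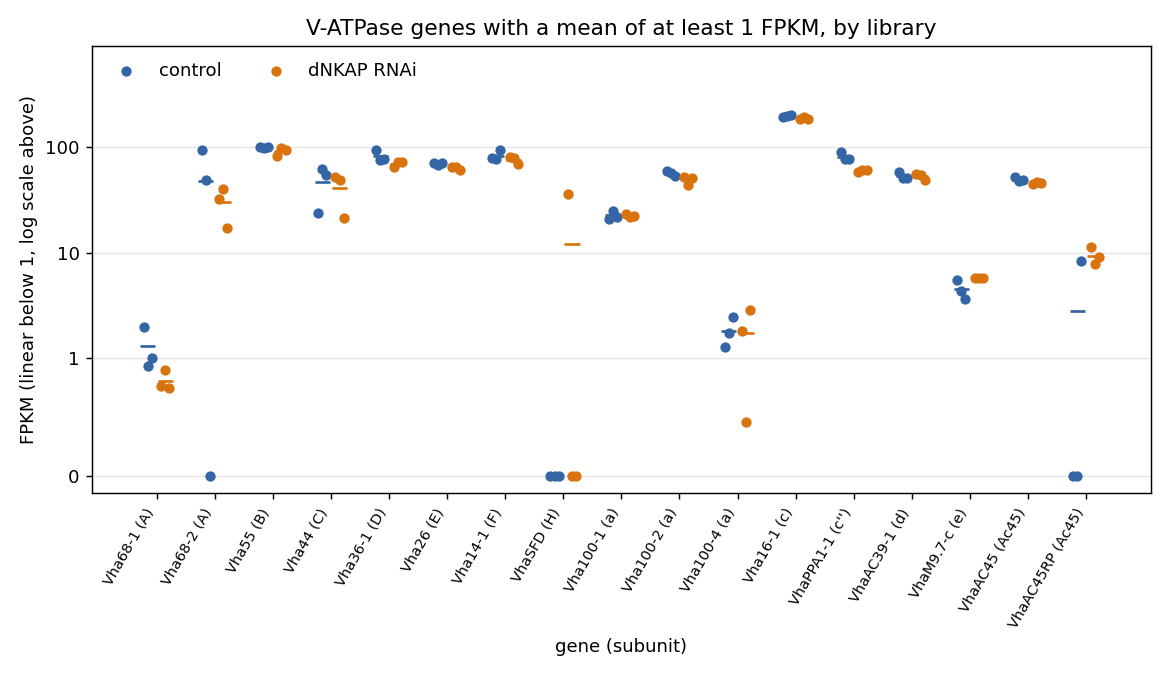
Levels in FPKM (vertical axis, linear below 1 and logarithmic above) of the 17 tested V-ATPase genes (horizontal axis, subunit in brackets), with 1 point per library and short lines at group means for 3 control and 3 dNKAP RNAi libraries. Vha16-1 is highest at 182 to 202 FPKM, and Vha68-2, VhaSFD and VhaAC45RP have libraries at 0.

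In the V0 sector the proteolipid Vha16-1 was the most abundant V-ATPase gene of the discs. Vha16-1, the c subunit that makes up most of the rotating ring, stood at 192.6, 194.5 and 201.6 FPKM across the controls, against 184.4, 193.2 and 181.9 FPKM under dNKAP RNAi. Its groups overlapped (log2 difference -0.07, 95% interval -0.19 to 0.05, limma adjusted p = 0.464), and its mean level lay at percentile 94.4 of tested genes. Its 4 paralogs were at or near 0, so Vha16-1 made up 99.9% to 100% of the c family's summed FPKM.

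VhaPPA1-1 had the smallest adjusted p of the 17 tested members. VhaPPA1-1 (FBgn0028662; chromosome 3R, 14902330 to 14904061, minus strand, dm6) encodes the c'' proteolipid, another member of the ring. It stood at 88.8, 75.8 and 76.3 FPKM across the controls, against 57.4, 60.2 and 60.3 FPKM under dNKAP RNAi. The gap between the lowest control and the highest dNKAP RNAi library exceeded the spread within the dNKAP RNAi group. Group means came to 80.3 ± 7.36 and 59.3 ± 1.67 FPKM (SD, n = 3 each), a log2 difference of -0.43 (SE 0.079, 95% interval -0.63 to -0.23) with a limma adjusted p of 0.0554. The adjusted p was 0.0428 with quantile normalization and 0.0447 with median-ratio scaling, both past the threshold of 0.05, and 0.0698 to 0.170 when 1 library was left out. Without a filter on low values it was 0.0659, and that of Vha68-3, listed at 0 in all dNKAP RNAi libraries, was 0.0643. Vha68-3 reached only 0.102 to 0.166 FPKM in controls. Whether its values of 0 reflect a leading isoform with no row, described below for Vha68-2, was not tested.

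The a subunit, which forms the proton path and places the pump on its membrane, was the family with the most even use of paralogs. Vha100-2 stood at 58.5, 56.0 and 53.4 FPKM across the controls, against 52.2, 43.8 and 50.5 FPKM under dNKAP RNAi, without overlap (log2 difference -0.20, 95% interval -0.42 to 0.018, limma adjusted p = 0.296). Vha100-1, studied mainly for its role in neurons, stood at 20.7, 24.7 and 21.8 FPKM across the controls, against 23.1, 21.9 and 22.1 FPKM under dNKAP RNAi. Its groups overlapped and its interval was -0.21 to 0.21 around a log2 difference of -0.00089 (adjusted p = 0.998). The 5 neuron markers summed to 0.649 to 5.65 FPKM in controls and 0.974 to 1.80 FPKM in dNKAP RNAi libraries, with elav at 0 in every library.

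Vha100-4 was a minor a gene at 1.27, 1.73 and 2.45 FPKM across the controls, against 1.82, 0.457 and 2.88 FPKM under dNKAP RNAi. Its groups overlapped (log2 difference -0.21, 95% interval -1.58 to 1.16, limma adjusted p = 0.859). The share of Vha100-2 in the summed FPKM of the 5 a genes was 72.7%, 67.9% and 68.7% in controls and 67.7%, 66.2% and 66.8% in dNKAP RNAi libraries. The dNKAP RNAi shares were all below the control shares, with a mean difference of -2.86 percentage points. A two-sided exact permutation test gave p = 0.1, the smallest that 3 against 3 libraries allow, and 0.8 after adjustment over the 8 subunits whose shares were tested. The c'' pair was not among them, since VhaPPA1-2 was listed at 0 throughout. The mean difference was -15.8 points with exact transcript matches alone and -1.41 points without control 1.

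The remaining V0 genes were steady or low. VhaAC39-1, the d subunit that joins the ring to the central stalk, stood at 57.8, 51.1 and 50.7 FPKM across the controls, against 55.7, 54.0 and 49.0 FPKM under dNKAP RNAi, with overlapping groups (log2 difference -0.0070, 95% interval -0.22 to 0.20, limma adjusted p = 0.980). VhaM9.7-c, a gene for the small e subunit, stood at 5.52, 4.31 and 3.67 FPKM across the controls, against 5.79, 5.80 and 5.77 FPKM under dNKAP RNAi. It was the 1 tested member with all dNKAP RNAi libraries above all controls, and its difference of 0.35 did not pass the test (95% interval -0.07 to 0.77, adjusted p = 0.328).

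Of the accessory genes, VhaAC45 was steady and its relative VhaAC45RP was not. VhaAC45 encodes the fly counterpart of mammalian Ac45, a membrane protein that binds V0, and stood at 51.7, 47.9 and 48.2 FPKM across the controls, against 44.1, 46.4 and 45.9 FPKM under dNKAP RNAi. Its groups did not overlap (log2 difference -0.11, 95% interval -0.26 to 0.03, limma adjusted p = 0.337). VhaAC45RP was listed at 0, 0 and 8.32 FPKM across the controls, against 11.2, 7.79 and 9.02 FPKM under dNKAP RNAi. Control 3 lay inside the dNKAP RNAi range (log2 difference 2.90, 95% interval -0.15 to 5.95, adjusted p = 0.283), and without that library VhaAC45RP passed the test at an adjusted p of 0.00437. Control 3 was the only control above 0, so leaving it out fixed the separation of the groups. With any other library left out the adjusted p was 0.398 to 0.488.

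Across the tested members, 0 rose and 0 fell in the dNKAP RNAi libraries by limma's test, where 3.72% of the 6506 genes tested were called, 3.21% higher and 0.507% lower. At an unadjusted limma p under 0.05 the count was 1 of 17, VhaPPA1-1, beside 19.0% of all tested genes. This count depended on scaling. It was 3 of 17 with quantile normalization, beside 1222 of 6506 genes, and 6 of 17 with median-ratio scaling, beside 1296 of 6502. By adjusted p, 1 member, again VhaPPA1-1, was called lower with quantile normalization and with median-ratio scaling. Lower calls over all genes were then 62 of 6506 and 61 of 6502, against 33 of 6506 in the main fit. The mean log2 value was lower in dNKAP RNAi for 13 of 17 members and for 45.6% of all tested genes. All 5 trachea markers likewise had a lower mean log2 value, with sums of 538 to 790 FPKM across the controls and 459 to 537 FPKM under dNKAP RNAi, and their part in these values was not tested. In 7 members, Vha100-2, Vha26, Vha36-1, Vha55, Vha68-1, VhaAC45 and VhaPPA1-1, all 3 dNKAP RNAi libraries lay below all controls, as did 11.2% of all tested genes. Of these, Vha68-1 was tested only because of its higher value in control 1. All dNKAP RNAi libraries lay above all controls in 1 member and in 17.3% of all tested genes. The median log2 change was -0.12 over the 17 members and 0.030 over all tested genes.

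**Figure D3:**
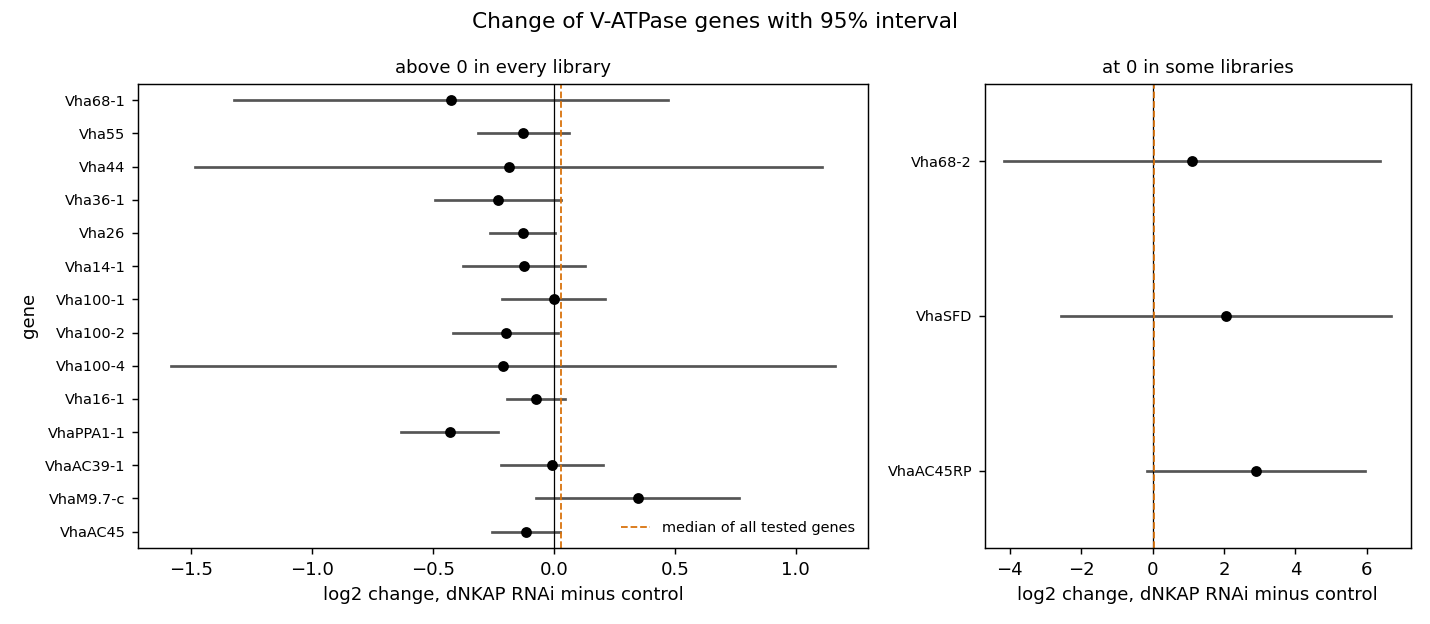
Log2 change of each tested V-ATPase gene (dNKAP RNAi minus control, log2(FPKM + 0.5), horizontal axes) with its 95% interval as a line, for 14 genes above 0 in every library (left) and 3 genes with libraries at 0 (right, wider axis), and the median of all tested genes at 0.030 as a dashed line. The interval of VhaPPA1-1 lies from -0.63 to -0.23, and those of the other 16 genes cross 0.

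The abundant members, a subset chosen after the values were seen, were also read alone. Of the 33 genes, 11 had at least 10 FPKM in every library, and their log2 changes ran from -0.43 to -0.00089 with a median of -0.13. All 11 had their lower group mean under dNKAP RNAi, and 6 had groups that did not overlap. The cut left out all 4 tested members with a higher mean log2 value under dNKAP RNAi, Vha68-2, VhaAC45RP, VhaSFD and VhaM9.7-c. It also left out Vha68-1 and Vha100-4, which had a lower one, so the count of 11 depends on the cut. Among all 3813 genes with at least 10 FPKM in every library, the median was 0.0079, 48.3% had a lower mean and 13.3% had all dNKAP RNAi libraries below all controls. The 11 genes also varied little: their coefficient of variation over the 6 libraries had a median of 7.03%, from 3.75% for Vha16-1 to 38.9% for Vha44, beside 10.6% for the 3813 genes.

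The order of the abundant members was clear at its top and blurred below. Vha16-1 exceeded Vha55 in 6 of 6 libraries, at 1.92 to 2.23 times its FPKM, and Vha55 exceeded Vha14-1 in 6 of 6. Vha14-1, Vha36-1, VhaPPA1-1 and Vha26 followed, and neighbours among these 4 changed places in at least 2 libraries. Vha26 exceeded VhaAC39-1 in 6 of 6 libraries. VhaAC39-1, Vha100-2, VhaAC45 and Vha44 again changed places with their neighbours in some libraries, and Vha44 exceeded Vha100-1 in 5 of 6. The exception, dNKAP RNAi library 3, is a library in which the leading isoform of Vha44 had no row, as described below.

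Part of the spread of Vha44 and Vha68-2 can be read from another column of the deposited tables. That column gives each transcript's FPKM as a percent of the most abundant isoform of the gene assembled in that library, and for some genes no listed transcript stands at 100, so the leading isoform has no row in the tables used here. Vha44 was in this state in control 1, where its listed transcript stood at 70% of an isoform of 33.7 FPKM, and in dNKAP RNAi library 3, at 67% of an isoform of 31.5 FPKM. With those isoforms added, these libraries read 57.3 and 52.6 FPKM, near the 48.1 to 61.5 FPKM of the other 4. The difference between the groups was then -0.18 with a much narrower interval, -0.36 to 0.0059 (limma adjusted p = 0.272).

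Vha68-2 was in the same state in 4 libraries. Its listed transcript stood at 64% of the leading isoform in control 2 and at 40%, 52% and 17% in dNKAP RNAi libraries 1 to 3, which gives sums of 124.6, 112.1, 117.0 and 118.3 FPKM. Control 1 stayed at 94.2 FPKM, and control 3, with no listed value above 0, gave no such sum. In the 3 dNKAP RNAi libraries the assembled gene also held Vha68-3 at 0, so the files do not say to which of the neighbouring genes the leading isoform belongs. The fitted difference of Vha68-2, with control 3 still at 0, was then 2.68 on the log2 scale (95% interval -3.02 to 8.39). With all such isoforms added, 0 members were called and VhaPPA1-1 had an adjusted p of 0.0538 by limma.

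**Figure D4:**
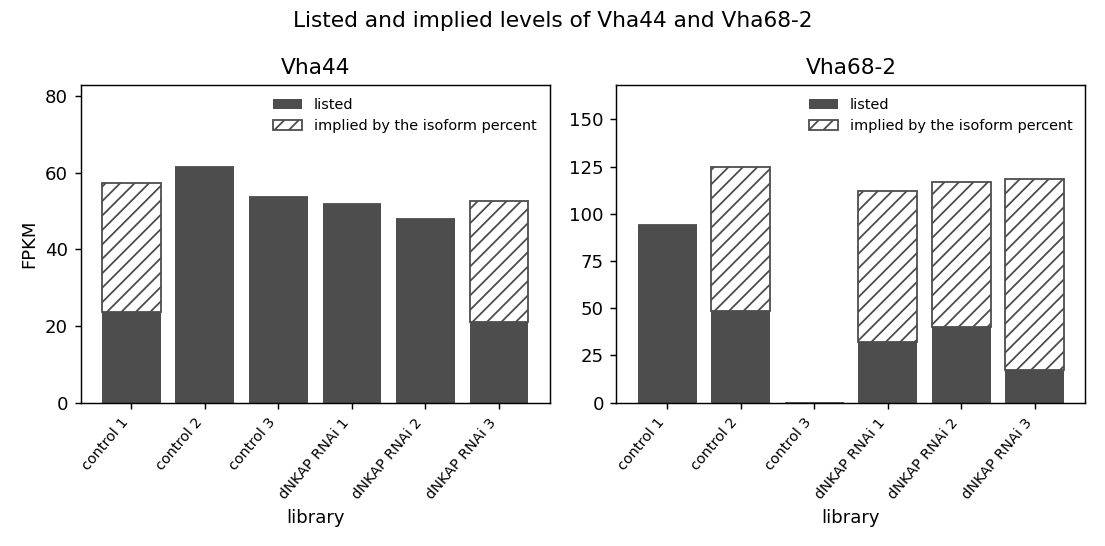
FPKM (vertical axes) of Vha44 and Vha68-2 in each of the 6 libraries (horizontal axes), as listed (solid) and with the leading isoform that the percent column implies (hatched). With the hatched part, Vha44 reaches 57.3 FPKM in control 1 and 52.6 FPKM in dNKAP RNAi library 3, and Vha68-2 stays at 0 in control 3.

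VhaAC45 was the 1 member called for its use of reference transcripts. Of 17 member transcripts tested in 8 genes with limma's diffSplice, the 2 of VhaAC45 passed the threshold (adjusted p = 2.69e-05). Over all genes 2.09% of 4297 transcripts passed. In a gene with 2 tested transcripts their tests mirror each other, here at log2 relative changes of -4.56 and 4.56. The 2 calls are therefore 1 result, and the share of genes called was not computed. FBtr0088587 stood at 51.7, 47.9 and 48.2 FPKM across the controls, against 35.7, 37.7 and 37.8 FPKM under dNKAP RNAi. FBtr0088588 was listed at 0 in all 3 controls, with upper bounds of 0.054, 0.040 and 0.058 FPKM, and at 8.43, 8.64 and 8.08 FPKM in dNKAP RNAi libraries, with lower bounds of 7.01, 7.21 and 6.75 FPKM. It made up 19.1%, 18.6% and 17.6% of VhaAC45 in those 3 libraries. It reached a mean of 1 FPKM through the dNKAP RNAi libraries alone, so VhaAC45 entered this test through the group in which FBtr0088588 was high.

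The pair of VhaAC45 transcripts encode the same protein and differ in their untranslated regions. Their coding sequence of 1137 bases is identical. On chromosome 2R (dm6, plus strand) FBtr0088587 has an intron of 88 bases at 9207660 to 9207747 in its 5′ untranslated region, which lies inside the first exon of FBtr0088588, and the 3′ end of FBtr0088588 is 119 bases shorter. The 5′ untranslated region is thus 116 bases long in FBtr0088587 and 204 bases in FBtr0088588, and the 3′ untranslated region 669 and 550 bases. An isoform that is not the leading one and has no row cannot be seen from the percent column, so whether the 0 in the controls reflects such a missing row was not tested. With a minimum mean of 5 FPKM FBtr0088588 was not tested and 0 member transcripts were called.

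Other members with more than 1 listed transcript varied without passing the test on all libraries. In Vha16-1, FBtr0086150 made up 72.7%, 66.3% and 71.1% of the gene in controls and 63.3%, 56.6% and 68.3% in dNKAP RNAi libraries (diffSplice adjusted p = 0.719). In Vha100-2, FBtr0083657, which starts downstream of FBtr0083656 and has the same coding sequence, stood at 18.0, 0 and 0 FPKM across the controls, against 29.3, 12.1 and 16.0 FPKM under dNKAP RNAi (adjusted p = 0.441). Without control 1, the only control that listed FBtr0083657, its adjusted p was 0.0011. With any other library left out it was 0.569 to 0.669. In Vha100-1, FBtr0301650 stood at 4.31, 7.66 and 0 FPKM in controls and at 0 in all dNKAP RNAi libraries (adjusted p = 0.477). It reached a mean of 1 FPKM through the controls alone. Without control 3, the only control at 0, its adjusted p was 0.00171. Without control 2 FBtr0301650 was not tested, and with any other library left out its adjusted p was 0.624 to 0.684.

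**Figure D5:**
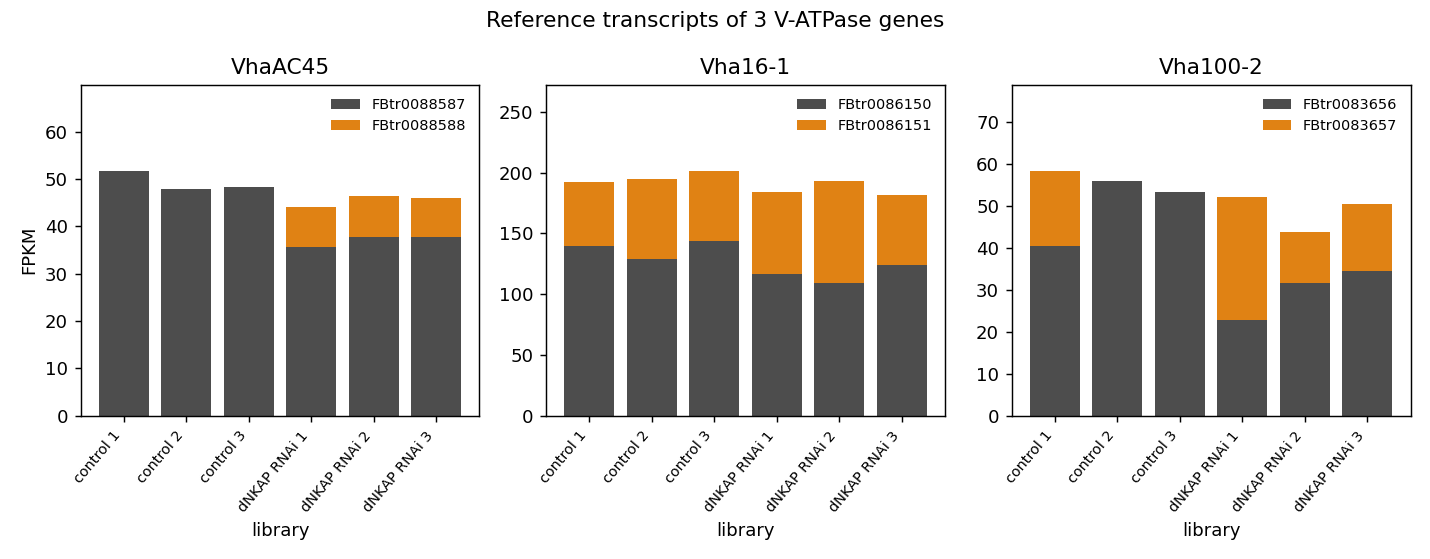
FPKM (vertical axes) of the reference transcripts of VhaAC45, Vha16-1 and Vha100-2, stacked by library (horizontal axes; 3 control and 3 dNKAP RNAi libraries). FBtr0088588 of VhaAC45 stands at 8.08 to 8.64 FPKM in the dNKAP RNAi libraries and at 0 in the controls.

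In most families a single paralog held nearly all of the listed FPKM in both groups. Vha36-1 made up 99.9% to 100% of the D genes, and Vha14-1 and VhaAC39-1 reached at least 99.96% and 99.91% of the F and d genes in every library. VhaM9.7-c made up 85.0% to 100% of the e genes, and Vha68-2 made up 95.8% to 97.8% of the A genes in 5 libraries and 0% in control 3. The Ac45 pair was less one-sided: VhaAC45 made up 100%, 100% and 85.3% of it across the controls, against 79.8%, 85.6% and 83.6% under dNKAP RNAi, with overlapping groups, and the controls at 100% are those with VhaAC45RP at 0. None of these shares can pass an exact test of 3 against 3 libraries at 0.05, since the smallest p is 0.1.

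ATP6AP2, an accessory protein gene of the pump that FlyBase no longer names with Vha and that was chosen after its values were seen, stood at 109, 116 and 110.4 FPKM across the controls, against 102, 120 and 107 FPKM under dNKAP RNAi (limma adjusted p = 0.848). The groups overlapped.

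Genes that work with the pump were read from 5 lists of assembly factors, lysosomal proteins, endosomal trafficking, TORC1 at the lysosome and autophagy. Of their 61 tested genes 3 were called higher and 1 lower, beside 3.21% and 0.507% of all tested genes, with a median log2 change of 0.02. These few calls are given gene by gene. Of the 3 tested assembly factors 0 were called. The 2 most abundant were mtd, a TLDc-domain gene, and Rbcn-3A, a rabconnectin. In control and dNKAP RNAi libraries mtd stood at 79.7 ± 18.7 and 91.6 ± 10.9 FPKM (SD, n = 3 each, limma adjusted p = 0.585). Rbcn-3A stood at 24.1 ± 0.980 and 24.8 ± 0.929 FPKM (adjusted p = 0.769).

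Of the 16 tested trafficking genes 0 were called, beside 3.72% of all tested genes, so a list of this size need not hold a call. Rab11, the GTPase of recycling endosomes, read 242, 307 and 206 FPKM across the controls, against 173, 239 and 158 FPKM under dNKAP RNAi, with overlapping groups (limma adjusted p = 0.371). Rab5, the GTPase of early endosomes, read 35.6, 205 and 210.5 FPKM across the controls, against 161, 34.1 and 36.1 FPKM under dNKAP RNAi (adjusted p = 0.605). Its libraries fell into a high and a low level within each group.

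The lysosomal list had 1 of 16 tested genes lower, beside 0.507% of all tested genes. Lamp1, a lysosomal membrane glycoprotein, stood at 9.59, 7.81 and 7.63 FPKM across the controls, against 4.01, 4.81 and 4.59 FPKM under dNKAP RNAi, and fell (log2 change -0.83, limma adjusted p = 0.0426). The call was lost whichever library was left out, at 0.0887 to 0.120. In the autophagy list 1 of 13 tested genes rose, beside 3.21% of all tested genes: Atg17, a scaffold of the Atg1 kinase complex, stood at 12.6, 15.1 and 15.0 FPKM across the controls, against 21.6, 22.5 and 26.9 FPKM under dNKAP RNAi (log2 change 0.71, adjusted p = 0.0464, and 0.0950 to 0.123 with 1 library left out).

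The TORC1 list had 2 of 13 tested genes called higher, beside 3.21% of all tested genes. Lamtor5, a subunit of the Ragulator, to which the V-ATPase binds at the lysosome, was listed at 0 in all controls, against 12.8, 10.9 and 9.44 FPKM under dNKAP RNAi (limma adjusted p = 6.68e-04). It reached a mean of 1 FPKM through the dNKAP RNAi libraries alone and was not tested with exact transcript matches alone. Whether its values of 0 reflect transcripts with no row was not tested. Lst8, a subunit of TORC1, stood at 39.8, 37.0 and 35.5 FPKM across the controls, against 50.2, 51.8 and 52.0 FPKM under dNKAP RNAi (log2 change 0.45, adjusted p = 0.0232). With 1 library left out its adjusted p ran from 0.0365 to 0.0870 and passed the threshold in 1 of 6 cases, without control 1. Of the other genes in this list, raptor, Lamtor1 and Lamtor3 were listed at 0 in every library.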

How the data were processed

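The authors deposited 1 transcript table per library with FPKM values and their confidence bounds, per the file headers in Cuffcompare's layout. The deposited coverage column is a signal, read depth per base, and was used for the depth of each library, 4.14 to 6.44 gigabases. The deposited isoform column gives FPKM as a percent of the leading isoform. FastQC, HTSeq, DESeq and the build dm6 are named by the submitters' processing notes. Versions, aligner and strandedness are not given in those sources.

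A gene's value was the sum of FPKM over transcripts with an exact match, a contained fragment, a shared junction or other exonic overlap, which left out 0.267% to 3.70% of each library's FPKM. Of 17527 listed genes 17429 were named, 149 through their transcripts. Groups were compared with limma 3.58.1 (R 4.3.3, two-sided, mean-variance trend) on log2(FPKM + 0.5) for genes whose mean reached 1 FPKM, with Benjamini-Hochberg adjustment over 6506 genes and a threshold of 0.05, in place of a count test, since no counts were used. Fold changes on this scale understate those of low genes. limma's diffSplice tested the usage of transcripts. Shares were tested with exact permutation tests. A check on simulated data covered limma's comparison of gene levels alone, not diffSplice or the permutation tests. Its outcome is not given here, and no conclusion is drawn from it. The deposited bounds spanned a median of 7.47% to 8.81% to each side for transcripts of 10 to 50 FPKM.

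Members and lists were chosen with earlier results of these data known. Every member is accounted for, those at a mean of 1 FPKM or more with all values. From the other lists, called genes were named, or the 2 most abundant tested. Coordinates are from the Ensembl annotation of the same assembly. Summed levels of 9 marker lists were computed. In addition to those in the report, myoblasts gave 52.4 to 66.3 FPKM in controls and 49.4 to 65.4 FPKM in dNKAP RNAi libraries, hemocytes 3.03 to 17.7 and 9.09 to 17.4 FPKM, testis 0 to 0.202 and 0.418 to 0.948 FPKM, Malpighian tubule 15.6 to 23.1 and 24.1 to 33.1 FPKM and salivary gland 24.2 to 66.9 and 29.3 to 109.9 FPKM. The figures were drawn with matplotlib 3.10.9.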

Additional observations from a re-analysis of the deposited data

How the results depend on the processing

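The count of 0 lower V-ATPase genes became 1, VhaPPA1-1, under quantile normalization, median-ratio scaling and, chosen after seeing the data, among genes above 0 in every library or with their leading isoform listed in every library (adjusted p 0.0428, 0.0447, 0.0451 and 0.0344 by limma), and stayed 0 under the other alternatives. Lower calls over all genes rose as well, from 33 of 6506 to 62 of 6506, 61 of 6502, 59 of 5511 and 78 of 5007, in the same order. The count higher was 0 to 1 when 1 library was left out, with VhaAC45RP called without control replicate 3, its only control above 0 (log2 change 4.28, adjusted p = 0.00437). The median change then ran from -0.135 to -0.0540 (-0.0540 when control replicate 3, and -0.0614 when dNKAP RNAi replicate 3, was left out). The 4 calls in the other lists were 2 without a filter, 1 with exact matches alone and 1 with a replicate block, and 1 to 3 when 1 library was left out. Over all genes, 209 were called higher and 33 lower of 6506 in the main fit. Those counts were 206 and 60 of 10684 without a filter and 147 and 25 of 6102 with exact matches alone. With 1 library left out they were 126 to 159 and 28 to 34. The 2 called member transcripts became 0 at a minimum mean of 5 FPKM, since FBtr0088588 was no longer tested, and 2 to 4 when 1 library was left out, 4 without control replicate 1 or without control replicate 3. With exact matches alone the log2 change was 0.28 for Vha100-1, -0.75 for Vha100-2, -0.44 for Vha100-4, -0.051 for Vha44, 3.63 for Vha68-2 and -0.30 for VhaAC39-1. It was -0.65 for Vha100-4, -0.81 for Vha68-1 and 0.16 for VhaM9.7-c with quantile normalization, and -0.33 for Vha100-4, 1.87 for Vha68-2 and 4.41 for VhaAC45RP with a pseudocount of 0.1. With 1 library left out the range for Vha100-1 was -0.054 to 0.069. The range was -0.60 to 0.31 for Vha100-4, -0.61 to 0.22 for Vha44, -1.26 to 2.53 for Vha68-2 and -0.044 to 0.054 for VhaAC39-1, so these signs turned. Where no cause is given, the cause was not tested. Of 277 values for single genes, 262 kept their direction and side of the threshold. No pairing by replicate number was visible: deviations of same-numbered libraries correlated at -0.037, 0.057 and -0.0050, and those of differently numbered ones at -0.063 to 0.067. These values cannot show whether the libraries were paired by design. With a replicate block, 0 members were called at a smallest adjusted p of 0.234, the VhaAC45 transcripts stayed called (0.00654) and 72 genes rose and 5 fell in all. How far depth or transcripts with no row set the low values and those of 0 was not tested.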
